A study of Mus musculus with 6 samples.

Results

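The 10 genes of the IL-17 system were followed in whole skin of mice that lack JunB in the epidermis: the ligands Il17a, Il17f, Il17b, Il17c and Il17d, the receptor subunits Il17ra, Il17rb, Il17rc and Il17re, and Il23a, which codes for the subunit particular to IL-23. They were chosen by gene symbol, and the deposited table holds all 10 among its 23951 genes. RNA sequencing covered 3 JunBΔep mice (genotype JunB dep in the labels) and 3 control mice (JunB +/+), 1 library per mouse, all of strain C57Bl/6 and 6 to 7 months old. In JunBΔep mice Junb, which codes for a subunit of the transcription factor AP-1, is deleted in cells that express keratin 5, the basal cells of skin and of other stratified epithelia, so cells outside that lineage keep the gene. The skin was described in the paper as lesional for JunBΔep mice, and the labels name no treatment of either group. The replicate numbers 0, 1 and 2 of the labels name the mice here.

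IL-17A and IL-17F are made mainly by T cells and innate lymphoid cells, which IL-23 sustains in this program. They act on epithelial cells through a receptor of IL-17RA and IL-17RC, and in skin they induce antimicrobial peptides and chemokines that attract neutrophils. IL-17C comes largely from epithelial cells and acts through IL-17RA with IL-17RE, while IL-17B binds IL-17RB, the subunit that also serves IL-25. The mRNA of a lymphocyte cytokine is rare in whole skin, and in bulk tissue a change in the number of cells cannot be told apart from a change in RNA per cell.

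Il17a and Il17f are neighbours on chromosome 1 and share part of their regulation in lymphocytes. On mm9, by GENCODE annotation, Il17a has 3 exons from 20720986 to 20724577 on the plus strand, and Il17f has 3 exons from 20767232 to 20774351 on the minus strand. Their 3′ ends face each other across 42654 bases with 0 annotated genes between them. The 250 bases before each start site are printed because this pair ranked the highest mice alike and because AP-1 factors are known regulators of type 17 genes. The sequences are from RefSeq on GRCm38.p6, a later build than that of the expression values, at chr1:20730655-20730904 on the plus strand and chr1:20784271-20784520 on the minus strand. Capitals mark matches to TGANTCA, a loose AP-1 pattern that allows any middle base, or to AGGTCA, a core element of many nuclear receptors, on either strand.
Il17a: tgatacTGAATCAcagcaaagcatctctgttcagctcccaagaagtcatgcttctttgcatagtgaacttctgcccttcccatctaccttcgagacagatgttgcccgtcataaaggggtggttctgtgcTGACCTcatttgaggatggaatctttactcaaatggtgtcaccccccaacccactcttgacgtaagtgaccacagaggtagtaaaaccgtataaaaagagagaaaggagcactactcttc
Il17f: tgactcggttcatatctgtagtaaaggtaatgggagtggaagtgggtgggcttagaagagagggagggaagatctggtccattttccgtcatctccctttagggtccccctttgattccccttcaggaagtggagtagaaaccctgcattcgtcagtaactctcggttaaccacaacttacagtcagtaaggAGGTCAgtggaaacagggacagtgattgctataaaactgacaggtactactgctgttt

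Of the 10 genes, 7 have a promoter in that table. TGANTCA occurred in Il17a, as TGAATCA at -244 to -238 from the start, and in Il17rb, as TGAGTCA at -104 to -98, and in 6.75% of all 32841 promoters of the same length. AGGTCA occurred in Il17a, at -120 to -115 on the opposite strand, and in Il17f, at -58 to -53, against 14% of all promoters. The CRE-like AP-1 element TGACGTCA (1.55% of promoters) and the STAT element TTCNNNGAA (7.02%) occurred in 0 of the 7. No 2 of these matches overlapped. A match describes the letters of this window and not a bound site.

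Levels are in FPKM, fragments scaled by transcript length and by the mapped fragments of the library, and so can be compared between genes. The values summed to 481078 to 630363 FPKM per mouse, and the number of reads is unknown. Differences are JunBΔep minus control of log2(FPKM + 0.5), a scale that compresses changes of low genes, and were tested with limma over the 17021 genes whose mean reached 0.1 FPKM. All 10 members passed that filter, Il17a and Il17c only through JunBΔep-labelled library 0. The labels do not say more of how the mice were sampled, and p-values measure the spread between these mice. With 3 mice against 3, an exact permutation test of a single gene cannot give a p below 0.1.

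Libraries that stand apart bear on every value that follows. JunBΔep-labelled library 0 held Junb at 129.6 FPKM, above the controls (56.9 to 72.4 FPKM), while JunBΔep replicates 1 and 2 held 42.8 and 28.0 FPKM, so Junb goes against its label. Its 5 markers of mucosal epithelium (Krt4, Krt13, Krt76, Sprr3 and Pax9) summed to 3798 FPKM, against 0.394 to 1.41 FPKM in the other libraries, and Krt14, a keratin of basal epidermis, was listed at 0 there and at 837 to 1304 FPKM elsewhere. A listed 0 can be a failed estimate, and Krt5, the partner of Krt14, was at its highest there, 3725 FPKM. Its 8 sebaceous and adipocyte markers had the lowest sum, 339.7 FPKM against 1573 to 8962 FPKM. Control replicate 0 held 7 liver markers at a sum of 1859 FPKM, against at most 29.7 FPKM elsewhere. The 15 skeletal muscle markers summed to 24542 to 33864 FPKM in the controls and to only 2289 to 5524 FPKM in the JunBΔep-labelled libraries, and 11 of them were called lower. That count was 0 without any 1 control, without JunBΔep replicate 1, with the replicate number or the sample-name series as a term, or without both replicates 0, 3 with no filter on low values, and 4 without JunBΔep-labelled library 0. In the whole comparison 1.38% of tested genes had an adjusted p under 0.05, and 0% were called higher.

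None of the 10 IL-17 genes was called at an adjusted p under 0.05 in limma. At an unadjusted p under 0.05, 1 of them (Il17b) was higher, as were 1.43% of all tested genes. Patterns of 2 kinds appeared in the values. Il17a, Il17f, Il17c and Il23a were more than 10 times as high in JunBΔep-labelled library 0 as in any other library, a limit chosen after the values were seen and passed by 1.25% of tested genes. Il17a and Il17c passed the filter only through that library. That leaves 2 of the other 8 members, against 132 of 16825 tested genes that did not need that library to pass. Il17b was higher in all 3 JunBΔep-labelled libraries than in all 3 controls. Every JunBΔep-labelled library lay below every control for 0 of the 10 genes, against 9.16% of tested genes. The receptors overlapped between the groups.

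**Figure D1:**
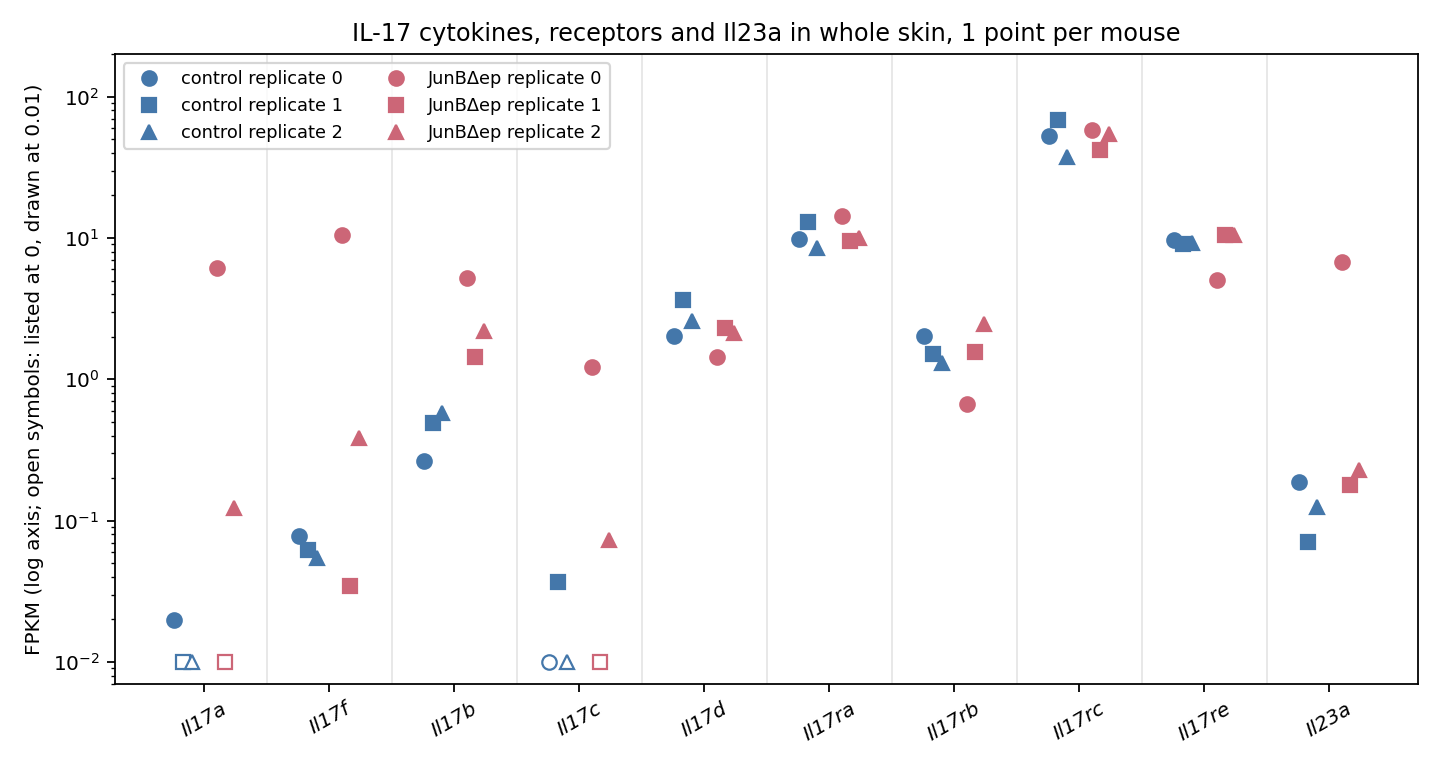
FPKM (log axis) of the 10 genes in each of the 6 mice, with control mice in blue, JunBΔep-labelled mice in red and the replicate number given by the symbol; open symbols are values listed at 0 and drawn at 0.01. Il17a, Il17f, Il17c and Il23a have 1 red circle far above all other points, Il17b has all 3 red points above the blue ones, and the receptors overlap between the groups.

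Il17a, the founding cytokine of the family, was listed with 0.0197, 0 and 0 FPKM for control mice 0, 1 and 2. Its values for JunBΔep-labelled libraries 0, 1 and 2 were 6.17, 0 and 0.122 FPKM. JunBΔep-labelled library 0 was thus 50.4 times the next highest, JunBΔep replicate 2, while JunBΔep replicate 1 was listed at 0 like 2 of the controls. The fitted difference was 1.33 (standard error 0.98, 95% interval -1.05 to 3.72, adjusted p = 0.722 in limma). Low FPKM values of a gene fell on whole multiples of 1 smallest unit per library. In these units, which would be single fragments if 1 unit is 1 fragment, Il17a stood at 1, 0 and 0 in the controls and at 323, 0 and 6 in the JunBΔep-labelled libraries.

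Il17f, which forms homodimers and a heterodimer with IL-17A, was at 0.0783, 0.0615 and 0.0540 FPKM in the controls, and it was at 10.4, 0.0343 and 0.386 FPKM in JunBΔep-labelled libraries 0, 1 and 2. JunBΔep replicate 1 lay below every control, so the groups overlapped. In whole units these were 4, 3 and 3 against 548, 2 and 19. The difference was 1.62 (standard error 1.10, 95% interval -1.07 to 4.30, adjusted p = 0.722 in limma). Il17f was the more abundant of the pair wherever both were above 0, at 3.99 times Il17a in control replicate 0 (on 4 units and 1 unit), 1.69 times in JunBΔep-labelled library 0 and 3.16 times in JunBΔep replicate 2.

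Il17c, the epithelial ligand, was at 0, 0.0368 and 0 FPKM in the controls, and it was at 1.23, 0 and 0.0730 FPKM in the JunBΔep-labelled libraries, which is 0, 1 and 0 units against 36, 0 and 2. The highest value was 16.8 times the next, and the other 5 libraries held at most 2 units each. The difference was 0.63 (standard error 0.48, 95% interval -0.54 to 1.79, adjusted p = 0.722 in limma).

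Il23a, whose product pairs with the subunit encoded by Il12b to form IL-23, was at 0.186, 0.0709 and 0.124 FPKM in the controls, and it was at 6.81, 0.178 and 0.228 FPKM in the JunBΔep-labelled libraries. In units this was 11, 4 and 8 against 414, 12 and 13. JunBΔep replicate 1 lay just under control replicate 0, and JunBΔep replicate 2 just above it, so the groups overlapped. The difference was 1.29 (standard error 0.93, 95% interval -0.96 to 3.55, adjusted p = 0.722 in limma).

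Il17b, whose product binds IL-17RB, was at 0.266, 0.487 and 0.581 FPKM in the controls, and it was at 5.20, 1.43 and 2.21 FPKM in the JunBΔep-labelled libraries, or 8, 14 and 19 units against 161, 49 and 64. It was the only one of the 10 genes with every JunBΔep-labelled library above every control, a pattern shown by 5.62% of tested genes. The group means were 0.445 ± 0.162 FPKM for controls and 2.95 ± 1.99 FPKM for the JunBΔep-labelled libraries (SD, n = 3 each, library 0 included), a difference of 1.73 (standard error 0.43, 95% interval 0.68 to 2.78), with an unadjusted p of 0.00676 and an adjusted p of 0.225 in limma. Without JunBΔep-labelled library 0 the difference was 1.29, and the mean of JunBΔep replicates 1 and 2 was 4.09 times the control mean. It was also positive within each series of sample names, which the labels do not explain: 2.71 in the 23x series (JunBΔep-labelled library 0, whose Junb goes against its label, and 2 controls) and 1.08 in the 27x series (2 JunBΔep mice and 1 control). The muscle markers separated the same mice in the opposite direction, all 15 lower in every JunBΔep-labelled library (as were 9.16% of all tested genes), and made up 4.58% to 5.77% of the FPKM sum in controls and 0.393% to 1.10% in the JunBΔep-labelled libraries. Their part in the Il17b difference was not tested.

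Il17d, the ligand most expressed in control skin, was at 2.03, 3.67 and 2.58 FPKM in the controls, and it was at 1.43, 2.31 and 2.11 FPKM in the JunBΔep-labelled libraries. The lowest value was in JunBΔep-labelled library 0, and the other JunBΔep mice lay within the control range. The difference was -0.40 (standard error 0.29, 95% interval -1.10 to 0.29, adjusted p = 0.722 in limma).

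The ligands together differed in makeup between the mice. Their FPKM summed to 2.40, 4.25 and 3.21 in the controls and to 24.4, 3.77 and 4.90 in the JunBΔep-labelled libraries. Il17d made up 80.2% to 86.2% of that sum in the controls, and 5.84%, 61.2% and 43.1% in JunBΔep-labelled libraries 0, 1 and 2. Il17b made up 11.1% to 18.1% in the controls and 37.9% and 45.1% in JunBΔep replicates 1 and 2. In JunBΔep-labelled library 0, Il17f gave 42.6%, Il17a 25.2%, Il17b 21.3% and Il17c 5.03%. These shares are a description and were not tested.

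**Figure D2:**
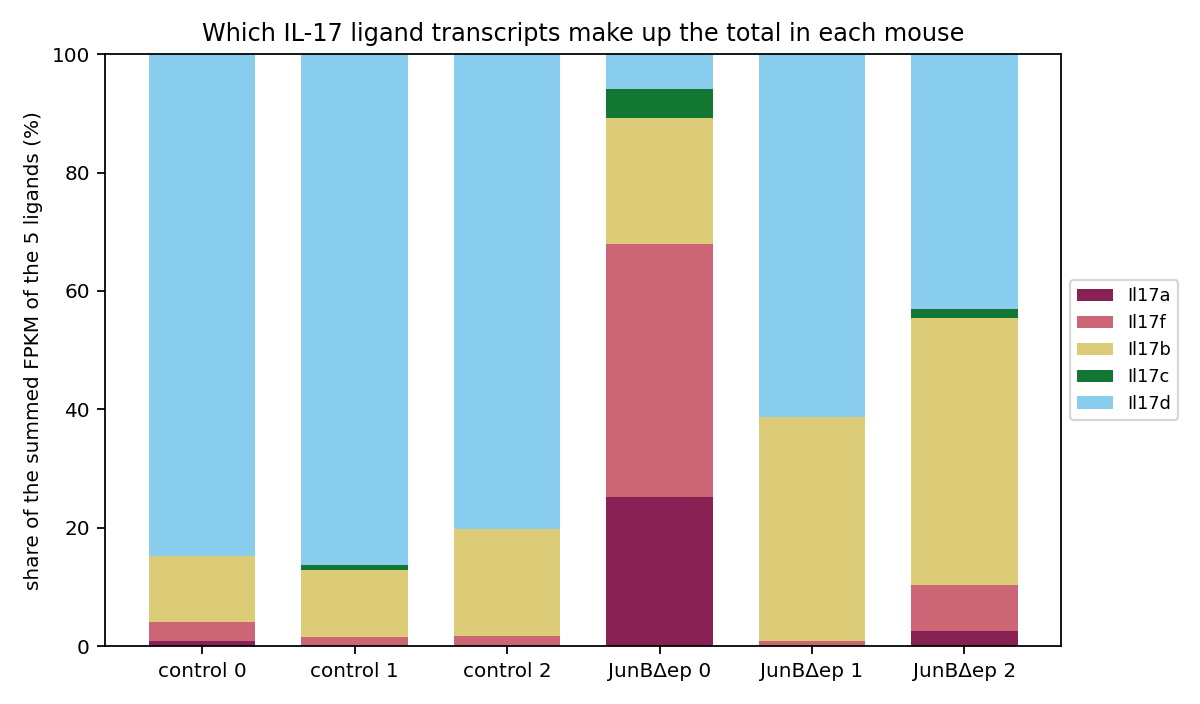
Share (%) of the summed FPKM of the 5 IL-17 ligands that each ligand took, 1 bar per mouse. Il17d (light blue) fills 80.2% to 86.2% of each control bar, Il17b (yellow) takes 37.9% and 45.1% in JunBΔep replicates 1 and 2, and Il17f and Il17a (reds) lead in JunBΔep-labelled library 0.

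JunBΔep-labelled library 0 held the highest value of 6 of the 10 genes (Il17a, Il17f, Il17b, Il17c, Il17ra and Il23a), as it did for 29.7% of all tested genes. Of the 6, Il17a and Il17c passed the filter only through that library. It held the lowest value of Il17d, Il17rb and Il17re, as it did for 31.8% of tested genes. For Il17a, Il17f, Il17b, Il17c and Il23a, JunBΔep replicate 2 came second behind it, an order noticed in these values and found in 4.17% of tested genes. Outside that first library the second place rested on 2 to 64 units.

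Receptor transcripts were more abundant than those of the ligands in every mouse, summing to 74.3, 91.8 and 56.6 FPKM in the controls and 78.5, 63.5 and 77.4 FPKM in the JunBΔep-labelled libraries. Il17rc, the subunit that pairs with IL-17RA to bind IL-17A and IL-17F, led in every mouse with 66.1% to 74.4% of the receptor sum. It was at 52.9, 68.2 and 37.6 FPKM in the controls, and it was at 58.4, 42.0 and 54.5 FPKM in the JunBΔep-labelled libraries, which lay inside the control range. The difference was -0.01 (standard error 0.26, 95% interval -0.64 to 0.63, adjusted p = 0.994 in limma).

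Il17ra, the subunit shared by most receptors of the family, was at 9.79, 13.0 and 8.52 FPKM in the controls, and it was at 14.4, 9.51 and 9.94 FPKM in the JunBΔep-labelled libraries, with a difference of 0.10 (95% interval -0.50 to 0.71, adjusted p = 0.891 in limma). Il17re, the IL-17C receptor subunit of epithelial cells, was at 9.64, 9.08 and 9.17 FPKM in the controls, and it was at 5.04, 10.5 and 10.5 FPKM in the JunBΔep-labelled libraries. JunBΔep-labelled library 0 was thus below all controls and the other 2 above them, and the fitted difference was -0.17 (95% interval -0.91 to 0.58, adjusted p = 0.857 in limma). Without that library it was 0.16. Within the controls, the levels of Il17ra and Il17re did not differ from each other beyond their spread, at 10.4 ± 2.30 and 9.30 ± 0.304 FPKM (SD, n = 3).

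Il17rb, the receptor subunit for IL-17B and IL-25, was the lowest receptor in every mouse, at 2.01, 1.52 and 1.31 FPKM in the controls and 0.672, 1.55 and 2.47 FPKM in the JunBΔep-labelled libraries. Its difference was -0.12 (95% interval -1.05 to 0.81, adjusted p = 0.919 in limma), and 0.24 without JunBΔep-labelled library 0. The intervals of the 4 receptors leave room for changes of these sizes in either direction, so equal levels are not shown. In control skin the order of mean levels was Il17rc, Il17ra, Il17re, Il17d, Il17rb, Il17b, Il23a, Il17f, Il17c and Il17a, in FPKM. Neighbours whose control means ± SD (n = 3) overlapped were Il17ra and Il17re, Il17d (2.76 ± 0.831 FPKM) and Il17rb (1.61 ± 0.358 FPKM), which were nearly level in control replicate 0, Il23a (0.127 ± 0.0577 FPKM) and Il17f (0.0646 ± 0.0125 FPKM), and Il17c and Il17a, which rested on 0 to 1 unit.

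Il17re and Il17rc lie next to each other on chromosome 6 of mm9, at 113408478 to 113420745 and 113421421 to 113433134 on the plus strand, with 675 bases between them. Il17rc was 4.10 to 7.51 times Il17re in the controls, 11.6 times in JunBΔep-labelled library 0 and 4.0 and 5.22 times in JunBΔep replicates 1 and 2. The other positions on mm9 are chromosome 6 from 120413215 to 120433745 for Il17ra, chromosome 14 from 30809327 to 30822082 for Il17rb and from 58143666 to 58162002 for Il17d, chromosome 8 from 124945920 to 124947539 for Il17c, and chromosome 10 from 127733196 to 127735140 for Il23a.

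**Figure D3:**
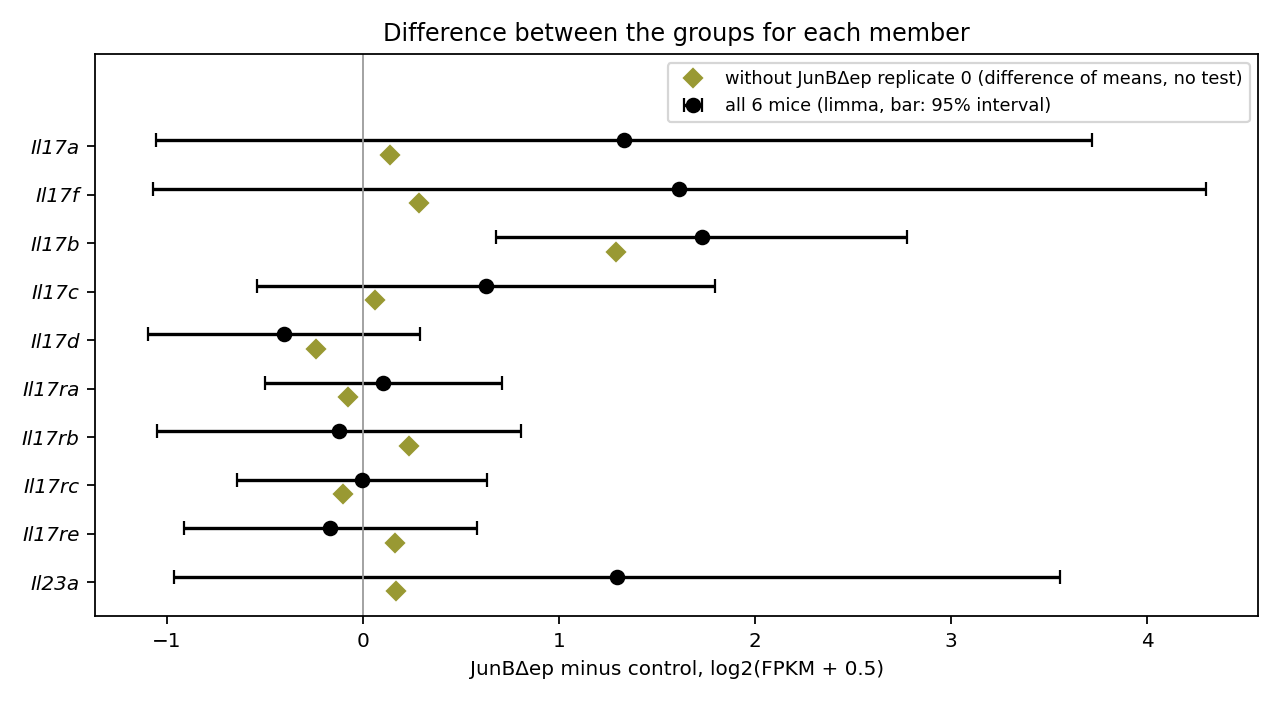
Difference between the groups, JunBΔep minus control on the log2(FPKM + 0.5) scale, for the 10 genes; black points with bars are the limma estimates with 95% intervals over all 6 mice, and diamonds are the differences of means without JunBΔep-labelled library 0. Of the 10 intervals that of Il17b alone lies above 0, and the diamonds of Il17a, Il17f, Il17c and Il23a lie near 0, between 0.06 and 0.29.

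Of the other genes of the family and of the IL-23 axis, 0 were more than 10 times as high in JunBΔep-labelled library 0 as in any other library. Of 5 such genes 4 could be tested and 0 were called in limma (0 at an unadjusted p under 0.05), with a median difference of 0.00, against 0.03 over all tested genes. Il25, the remaining ligand gene of the family, was at 0.390, 0.317 and 0.119 FPKM in the controls and 0.0421, 0.303 and 0.315 FPKM in the JunBΔep-labelled libraries, so it was lowest where Il17a was highest, on 1 unit. Il17rd, a receptor of the family that also restrains FGF signalling, was at 1.48, 1.59 and 1.88 FPKM against 0.677, 2.40 and 1.78 FPKM. Il12b, the partner of Il23a in IL-23, fell under the filter and stayed at or below 5 units in every mouse, at 0, 0 and 5 in the controls and 4, 1 and 4 in the JunBΔep-labelled libraries. Its level in JunBΔep-labelled library 0, 0.046 FPKM, thus stood beside 6.81 FPKM of Il23a.

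The IL-23 receptor genes were low throughout. Il23r was at 0.12, 0.0678 and 0.0850 FPKM in the controls and 0.279, 0.0810 and 0.0864 FPKM in the JunBΔep-labelled libraries, or 13, 7 and 10 units against 31, 10 and 9. Il12rb1, its partner, was at 0.224, 0.243 and 0.228 FPKM against 0.537, 0.175 and 0.441 FPKM. Both were highest in JunBΔep-labelled library 0, as were 29.7% of all tested genes, and overlapped between the groups. Il23r passed the filter only through that library.

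Genes of type 17 lymphocytes gave no common direction. Of 16 listed genes 14 were tested, 0 were called in limma (0 at an unadjusted p under 0.05), and 9 had a positive difference, with a median of 0.19. In JunBΔep-labelled library 0, 8 were highest, among them Il23r, which passed the filter only through that library. Of the other 13 genes 7 were highest there, as were 29.7% of all tested genes. Without that library the median was -0.08 over 13 genes. Stat3, the mediator of IL-23 and IL-6 signals, was at 41.7, 40.0 and 37.2 FPKM against 113.8, 31.5 and 50.4 FPKM. Il22, a partner cytokine named after its values were seen, was listed at 0 in all controls and in JunBΔep replicate 1. JunBΔep-labelled libraries 0 and 2 held 0.370 and 0.022 FPKM (18 units and 1 unit). Il22 thus had its highest values in the same 2 mice as Il17a.

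T cell markers went both ways in JunBΔep-labelled library 0, where the list's median difference from the control mean was -0.02. Of 12 markers 0 were called in limma (0 at an unadjusted p under 0.05). In that library 3 were highest and 2 lowest, against 29.7% and 31.8% of all tested genes. The summed level was 77.2 to 137 FPKM for controls and 82.7 to 150.0 FPKM for the JunBΔep-labelled libraries, most of it Thy1. Thy1 (120.0 FPKM against at most 81.2 FPKM), Cd5 (4.15 against at most 1.13 FPKM) and Cd4 (2.08 against at most 1.06 FPKM) were the 3 that were highest there, Cd5 and Cd4 being named after their values were seen. Cd3e, a subunit of the T cell receptor complex, was at 5.40, 8.44 and 3.70 FPKM in the controls, and it was at 1.96, 3.31 and 6.07 FPKM in the JunBΔep-labelled libraries, lowest where Il17a was highest. Cd3g was likewise lowest there, at 5.66 FPKM against 6.72 to 20.7 FPKM in the others. Of 7 markers used for innate lymphoid cells 0 were called in limma (0 at an unadjusted p under 0.05), with a median of 0.30 that was -0.04 without JunBΔep-labelled library 0. Markers of macrophages and dendritic cells had a median of -0.65, with 0 of 11 called in limma and 3 lower at an unadjusted p under 0.05, as were 6.13% of all tested genes (Flt3, H2-Ab1 and Cd209a, named after their values were seen).

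IL-17 receptor signalling genes stood nearest to the control level in JunBΔep replicate 1. Of 23 genes 0 were called in limma (0 at an unadjusted p under 0.05), 20 had a positive difference, and the median was 0.25 (0.12 without JunBΔep-labelled library 0). Against the control mean the list's median was 0.40, 0.05 and 0.12 in JunBΔep-labelled libraries 0, 1 and 2. In 5 of the 23 genes, against 5.62% of all tested genes, every JunBΔep-labelled library was above every control: Nfkbiz, Zc3h12a, Tnfaip3, Rela and Tab3, the last named after its values were seen. Nfkbiz, which codes for IκBζ, a mediator of the IL-17 response of keratinocytes, was at 11.5, 9.90 and 10.5 FPKM in the controls and 65.0, 13.1 and 22.2 FPKM in the JunBΔep-labelled libraries (difference 1.29, standard error 0.56, adjusted p = 0.681 in limma). Zc3h12a, whose product Regnase-1 degrades cytokine mRNA, was at 13.6, 9.59 and 11.7 FPKM against 101.2, 16.4 and 22.9 FPKM (1.51, standard error 0.67, adjusted p = 0.689 in limma). Tnfaip3, the NF-κB inhibitor A20, was at 6.62, 5.26 and 5.42 FPKM against 20.7, 6.65 and 9.25 FPKM. These 3 genes were highest in JunBΔep-labelled library 0 with JunBΔep replicate 2 second. That order was found in 7 of the 23 genes and in 4.17% of all tested genes. Cebpb, a transcription factor of the pathway, had another, at 80.0, 125.6 and 68.7 FPKM in the controls and 311.1, 113.9 and 96.3 FPKM in the JunBΔep-labelled libraries. Traf5, an adaptor, was lowest in JunBΔep-labelled library 0, at 1.8 FPKM against 7.29 to 13.5 FPKM elsewhere.

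Genes that IL-17 induces in epithelium were high in JunBΔep-labelled library 0. Of 25 genes 0 were called in limma (1 higher at an unadjusted p under 0.05, against 1.43% of all tested genes), the median difference was 1.64 (-0.25 over 18 genes without that library), and 20 had their highest value in that library, 14 of them at more than 10 times any other. For 7 of the 25 (Defb4, Cxcl3, Cxcl5, Csf2, Csf3, Il24 and Mmp13) this follows from the filter, which they passed only through that library. Of the other 18 genes, 13 were highest there, where 29.7% of all tested genes were, and 8 by more than 10 times, as were 1.25% of all tested genes. Against the control mean the list's median was 5.55 in that library, and -0.23 and 0.05 in JunBΔep replicates 1 and 2. The medians of 1.64 and 5.55 are over all 25 genes, the 7 included, so the filter bears on both. The 1.64 and -0.25 are thus over different genes. Cxcl2, a neutrophil chemokine, was at 0.149, 0.0890 and 0.0781 FPKM in the controls and 243.9, 0.279 and 0.926 FPKM in the JunBΔep-labelled libraries. Cxcl3, another of that group, was at 0.0226, 0.0237 and 0 FPKM against 96.2, 0.139 and 0.188 FPKM. In both, the JunBΔep-labelled libraries lay above all controls, as they did in Defb14 and in Mmp13, the last named after its values were seen. Cxcl3 and Mmp13 are among those that passed the filter only through JunBΔep-labelled library 0. That leaves 2 of the other 18 genes, against 5.62% of all tested genes. In all 4 most of the difference came from that library.

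Defb14, which codes for an antimicrobial β-defensin, was at 4.81, 6.21 and 4.81 FPKM in the controls, and it was at 467.8, 7.88 and 9.19 FPKM in the JunBΔep-labelled libraries, a difference of 2.55 (standard error 1.55, adjusted p = 0.722 in limma). Defb3, another β-defensin gene, was at 0.0715, 0.15 and 0.0657 FPKM against 222.6, 0.125 and 0.148 FPKM. Il24, a cytokine of the IL-20 group, was listed at 0 in all controls and in JunBΔep replicate 1. JunBΔep-labelled libraries 0 and 2 held 102.5 and 0.0428 FPKM. Ccl20, the ligand of the receptor CCR6 on type 17 cells, was named after its values were seen as the only target with an unadjusted p under 0.05 (0.0434, adjusted p = 0.633 in limma). It differed in pattern, at 3.33, 1.12 and 0.846 FPKM in the controls and 5.81, 2.47 and 9.43 FPKM in the JunBΔep-labelled libraries, highest in JunBΔep replicate 2.

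Targets that neutrophils also express were high in control replicate 0 as well. S100a8 was at 744.4, 13.9 and 8.15 FPKM in the controls and 24456, 13.0 and 65.6 FPKM in the JunBΔep-labelled libraries. S100a9, its partner in calprotectin, was listed at 0 in JunBΔep-labelled library 0 and at 698.4 FPKM in control replicate 0, and a 0 beside such a partner can be a failed estimate. Lcn2, an iron-binding antimicrobial protein, was at 222.1, 2.82 and 14.4 FPKM against 1044, 4.06 and 69.7 FPKM. The 9 neutrophil markers in the table summed to 1734, 32.2 and 14.3 FPKM in the controls and 24988, 23.7 and 138.4 FPKM in the JunBΔep-labelled libraries, with 0 called in limma (0 at an unadjusted p under 0.05). S100a8 alone gave 24456 FPKM of the highest sum. Retnlg, Cxcr2, Csf3r and Mmp8 were also highest in JunBΔep-labelled library 0, while Ngp (195.5 against 21.6 FPKM), Mpo (32.0 against 0.0615 FPKM) and Elane (35.7 FPKM against a listed 0) were higher in control replicate 0, values named after they were seen. Against the control mean the list's median was 3.78 in control replicate 0 and 3.45 in JunBΔep-labelled library 0. S100a8 and S100a9 are in both lists. The part of neutrophils and of mucosal epithelium in the values of JunBΔep-labelled library 0 was not tested. The 12 keratinocyte markers had a median difference of 0.07 (-0.09 without JunBΔep-labelled library 0) with 0 called in limma (0 at an unadjusted p under 0.05).

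**Figure D4:**
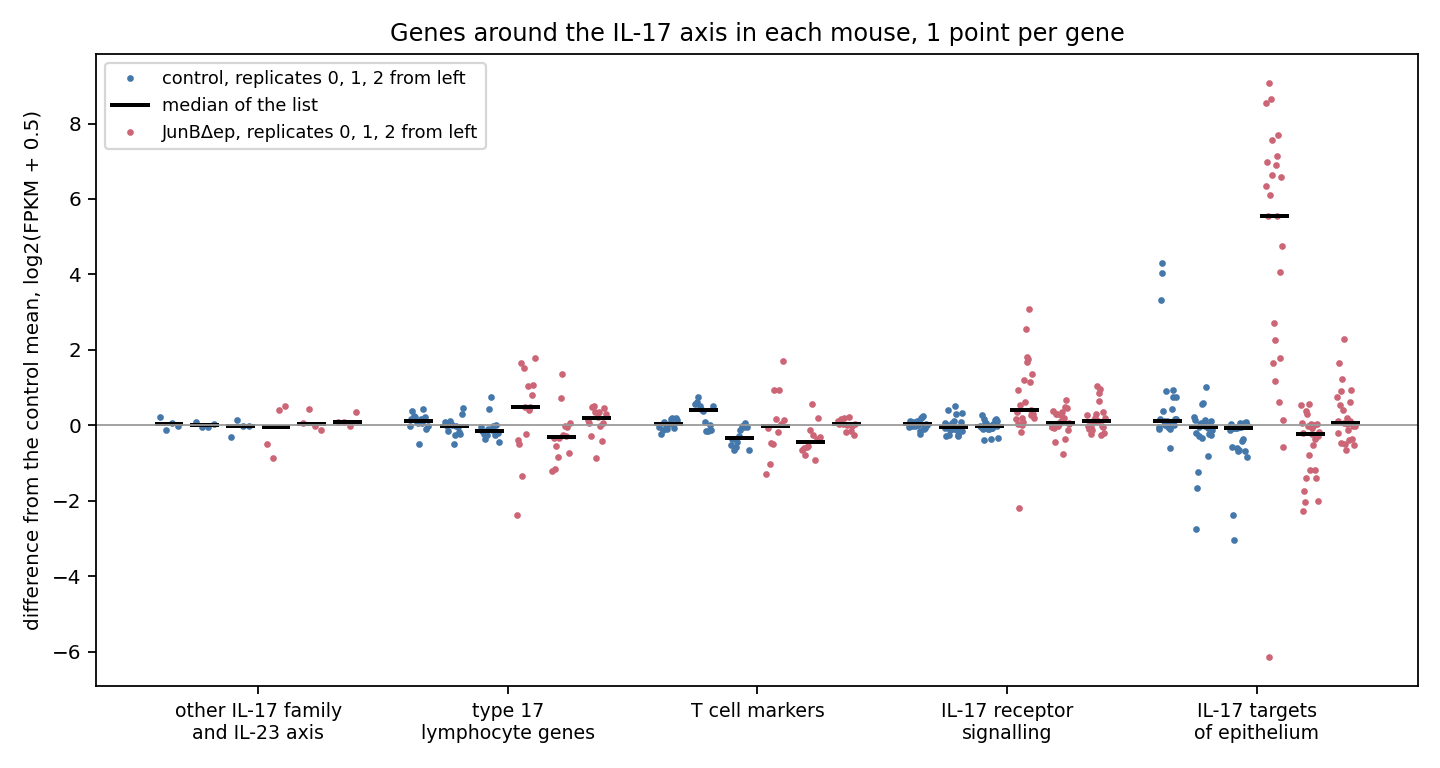
Difference from the control mean on the log2(FPKM + 0.5) scale for the tested genes of 5 lists, 1 point per gene, in 6 columns per list for control replicates 0, 1, 2 (blue) and JunBΔep-labelled libraries 0, 1, 2 (red), with the list's median as a black bar. The targets have a median of 5.55 in JunBΔep-labelled library 0 and of -0.23 and 0.05 in libraries 1 and 2, and the T cell markers have a median of -0.02 in JunBΔep-labelled library 0. Of the 25 targets, 7 passed the filter only through JunBΔep-labelled library 0.

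Likeness of pattern was measured by Pearson's r on the log2(FPKM + 0.5) scale over the 6 mice, among tested genes whose mean reached 1 FPKM. For a gene set by 1 high mouse such an r is high for many genes: r passed 0.99 with 99 genes for Il17a, 58 for Il17f, 87 for Il17c and 109 for Il23a, with 11 genes for Il17re, 5 for Il17rb, 2 for Il17ra and 1 for Il17b, and with 0 for Il17d and Il17rc. The closest to Il17a were Lce3d, Lce3b and Cdhr1, with r of 0.999 each, of which Lce3d and Lce3b are late cornified envelope genes. The closest to Il23a were Sprr2g, Lce3e and Sprr2f, all of the cornified envelope, with r of 0.9996, 0.999 and 0.999. Sprr2g was at 221.3 FPKM in JunBΔep-labelled library 0 and at most 0.477 FPKM elsewhere. The closest to Il17f were Fbln1, Sptlc2 and Rgs20, and to Il17c Lce3b, 2610528J11Rik and Duox1.

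Il17b had other neighbours. Lpp, Itga3 and Ctnna1, genes of cell adhesion, came closest, with r of 0.994, 0.989 and 0.984. Itga3, the integrin α3 chain of basal keratinocytes, was at 16.0, 18.4 and 19 FPKM in the controls and 36.6, 23.5 and 24.5 FPKM in the JunBΔep-labelled libraries, in the same order of mice as Il17b. Of the others, the closest were Scrn2, Pdrg1 and Cdc42ep5 for Il17d, Timm10b, Clic1 and Otulin for Il17ra, 8430419L09Rik, Rab2b and Tnfrsf11b for Il17rb, and Fam117a, Gng4 and D2hgdh for Il17re. Il17rc was closest to Mgp, Ptprcap and Lat, with r of 0.988, 0.988 and 0.982, of which Ptprcap and Lat are lymphocyte genes. All these r are over the same 6 mice and were not tested.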

How the data were processed

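Whole skin of 3 mice labelled JunBΔep and 3 control mice was sequenced from poly(A) RNA with stranded libraries. Per the labels and the paper's methods, the authors aligned reads to mm9 with TopHat2 2.0.10, Bowtie 1.0.0 and SAMtools 0.1.19. The values the authors deposited are FPKM, 1 column per mouse. The submitters' processing notes also list FastQC and Cufflinks. The role and version of Cufflinks and any further scaling of libraries are not given in the sources read. The authors' DESeq2 test on counts was not repeated, since counts were not analysed here.

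Values were tested as log2(FPKM + 0.5) in R 4.3.3 by limma 3.58.1, where the prior spread followed an intensity trend and genotype was the only term, over 17021 genes whose mean reached 0.1 FPKM. Tests were two-sided, adjusted by Benjamini-Hochberg over all tested genes, with a threshold of 0.05. The method was tested on simulated data, and the outcome of that test is not reported here. The members, gene lists and tests were chosen with earlier results of these data known. Genes named were the 10 members, all other family and IL-23 axis genes, of each other list the genes called or up to 6 with the highest mean or the largest difference, and the 3 genes closest to each member. Muscle markers that were called are given as a count. One gene that this rule allows is not reported here. Whole units were taken as the largest FPKM step of which the low values of a gene were multiples within 0.02, after scaling between libraries (relative totals 0.955 to 1.14). Whether 1 unit is 1 fragment is not known. Python 3.11.15 served for tables (pandas 2.3.3) and plots (matplotlib 3.10.9). Alternatives were pseudocounts of 0.1 and 1, other filters and scalings, limma without trend or robust, a replicate block, the sample-name series as a term, and leaving out mice. One more, chosen after seeing the data, left out JunBΔep-labelled library 0 and kept the series term.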

Additional observations from a re-analysis of the deposited data

How the results depend on the processing

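None of the 10 members was called in any of 183 fits under 19 alternatives, of which 17 turned the sign of a receptor, and 1 member had an unadjusted p under 0.05. Il17a and Il17c fell under the filter without JunBΔep-labelled library 0, and without both replicates 0, and could not be fitted there. Without JunBΔep-labelled library 0 the difference was 0.29 for Il17f, 0.17 for Il23a and 1.29 for Il17b, whose adjusted p ranged from 0.132 to 0.855 over its alternatives. Outside JunBΔep-labelled library 0, Il17a, Il17c and Il12b stood at no more than 6 units. What can be resolved at such low values was not tested.

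The count of all genes called, 235, was 0 with the replicate block, 0 with the series term, 0 without both replicates 0 and 57 (1 higher) with the series term and JunBΔep-labelled library 0 left out. Leaving out 1 mouse gave 0 to 254 genes: 0 without any 1 control or JunBΔep replicate 1, 135 without JunBΔep-labelled library 0 and 254 without JunBΔep replicate 2. The count higher ranged from 0 to 10. Same-numbered mice did not deviate together (correlations 0.12, -0.23 and -0.43). For differently numbered mice the correlations ranged from -0.37 to 0.46, so they cannot tell whether the numbers pair the mice.

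Without both replicates 0, Il17ra was -0.11, Il17rb 0.37 and Il17re 0.19. With the series term and JunBΔep-labelled library 0 left out, Il17rb was 0.45, Il17rc 0.35 and Il17re 0.18. Quantile normalization gave 0.012 for Il17rb, scaling every library to 1 common sum gave 0.0087 for Il17rc, and the series term gave 0.15 for Il17rc. Leaving out 1 mouse gave -0.076 to 0.27 for Il17ra, -0.43 to 0.24 for Il17rb, -0.23 to 0.20 for Il17rc and -0.33 to 0.16 for Il17re. For the reversals that keep all mice, the cause was not tested.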
